A study of Mus musculus with 6 samples.

Results

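The 10 genes described here are the flow-responsive transcription factors Klf2 and Klf4 and the immediate early genes Fos, Jun, Junb, Egr1, Ier2, Zfp36, Btg2 and Dusp1, out of 20822 genes counted. They were chosen by their measured levels in these same cells, with differences between cell types, libraries and genotypes already in view, so the levels and differences below are descriptions and not independent evidence. The cells came from retinas of mice at postnatal day 14 in oxygen-induced retinopathy, in which pups are kept in high oxygen and then returned to room air, so that the vessels lost in oxygen regrow. Retinas were dissociated, enriched for cells carrying CD31 (the endothelial surface protein PECAM1) and sequenced by Drop-seq, which counts unique molecular identifiers (UMIs, 1 per captured mRNA molecule) in single cells. There were 3 libraries from eNOS+/+ mice (C57BL/6J) and 3 from eNOS-/- mice, homozygous for a knockout allele of Nos3 (the gene of endothelial nitric oxide synthase) in every cell of the body and backcrossed to C57BL/6J. All pups went through the same oxygen protocol and each library pooled 3 to 5 retinas, so the spread between libraries holds both biological and technical variation.

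Klf2 and Klf4 are Krüppel-like zinc finger factors that laminar blood flow induces in endothelial cells (ECs), through the kinases MEKK3 and ERK5 and the MEF2 factors, and they raise transcription of genes of the quiescent vessel wall, Nos3 among them. Immediate early genes are transcribed within minutes of a stimulus without new protein synthesis, by factors such as SRF and CREB that already sit in the nucleus, and their mRNAs decay quickly. Some encode transcription factors (the AP-1 subunits Fos, Jun and Junb, and Egr1) and others encode proteins that end the response, such as Zfp36, which speeds decay of AU-rich mRNAs, Btg2, which recruits a deadenylase, and Dusp1, a phosphatase of MAP kinases. In the retina, neurons and Müller glia also switch these genes on when stimulated or injured. All levels here were measured after dissociation and CD31 enrichment, so changes made by these steps cannot be told apart from the state of the cells in the retina.

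The data held 8944 cells, 3031 of them eNOS+/+ and 5913 eNOS-/-, with 617246 to 3350799 UMIs per library. The authors' cell type names were used, and all ECs means their Tip, Structural and Proliferative ECs together, 5925 cells with 488367 to 2425603 UMIs per library. Levels are in CPM, the UMIs of a gene summed over the cells of 1 type in 1 library per 1000000 UMIs of that sum. The sum of 5 EC markers (Pecam1, Cldn5, Cdh5, Tie1 and Kdr) was 4215 to 5061 CPM in all ECs. Nos3 UMIs do not check the genotype labels, since Nos3 stood at 26.5 ± 8.94 CPM (SD, n = 3) in eNOS+/+ and 23.3 ± 8.55 CPM in eNOS-/- ECs. In the metadata 613 cells of eNOS+/+ replicate 2 carry the run name of another replicate, and 3 cell barcodes are shared between libraries, none within a genotype. The Structural ECs of eNOS-/- replicate 3 held 3726 CPM of the 5 mural cell markers, against 12.5 to 158 CPM in the other libraries.

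Across cell types the members fell into 2 patterns. Klf2 was high in ECs and mural cells and low elsewhere, whereas the AP-1 genes, Egr1, Btg2, Zfp36 and Ier2 had their highest median level in the cells named Neuroglia. Levels are given for libraries with at least 10 cells of a type, and the cell types were themselves clustered on these genes, so no test was made between them. Neuroglia were present in this number in 5 libraries, with 10 to 86 cells each, and their name was checked with 5 markers (Glul, Rlbp1, Apoe, Slc1a3 and Gfap), which summed to 15369 to 19973 CPM there but also to 18653 to 24022 CPM in immune cells.

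Klf2 reached a median of 525 CPM among Proliferative ECs, with Structural ECs at 518, mural cells at 496 and Tip ECs at 292 CPM. The ranges of these 4 types over libraries overlapped. Compared within each library, Klf2 was higher in Structural than in Tip ECs in 6 of 6 libraries (ratio 1.30 to 2.39). It was higher in Structural than in Proliferative ECs in 4 of 6, so the order of those 2 types is not set. In mural cells Klf2 was lower than in all ECs of the same library in 5 of 5 libraries (median ratio 0.726). In Neuroglia its level was 0.0873 times that of all ECs of the same library (median of 5 libraries), and it was lower in each of the 5. Klf4 had a median of 254 CPM in Structural ECs (224 to 448 CPM), and its next highest median was 209 CPM in Neuroglia, with overlapping ranges.

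Fos reached a median of 6607 CPM in Neuroglia (4930 to 9186 CPM), followed by 2922 CPM (1841 to 3493 CPM) in the cells the authors named Optc+, after the gene of the extracellular matrix protein opticin. These 2 ranges did not overlap, and the Optc+ range lay wholly above that of mural cells (343 to 1787 CPM, median 633 CPM). The Optc+ cells of these libraries also held 6491 to 10826 CPM of the 5 Neuroglia markers, against 365 to 786 CPM in all ECs. The part of glial RNA in the members' Optc+ levels was not tested. Jun, the usual partner of Fos, had a median of 4069 CPM in Neuroglia (3526 to 6464 CPM), also above the Optc+ range of 653 to 2548 CPM. Junb, a Jun relative that is a weaker activator, had a median of 1050 CPM in Neuroglia and 744 CPM in mural cells, with overlapping ranges.

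Egr1, a zinc finger factor induced by growth factors and depolarization, had a median of 3095 CPM in Neuroglia and 1212 CPM in Optc+ cells, and rods had 619 CPM. Among the genes that limit the response, Btg2 was at a median of 4596 CPM in Neuroglia (2689 to 5287 CPM) and 793 CPM in Optc+ cells (446 to 1089 CPM), with no overlap. Dusp1 departed from the others, with its highest median, 475 CPM, in Optc+ cells and 333 CPM in Neuroglia, over ranges that overlapped. Compared within each library, the 10 members summed to a median of 8.92 times the all-EC level in Neuroglia (5.06 to 11.4 times), higher in 5 of 5 libraries. Among the immediate early genes the ratios ran from 17.9 for Btg2, 14.2 for Egr1, 13.9 for Fos and 13.6 for Jun down to 2.87 for Dusp1.

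**Figure D1:**
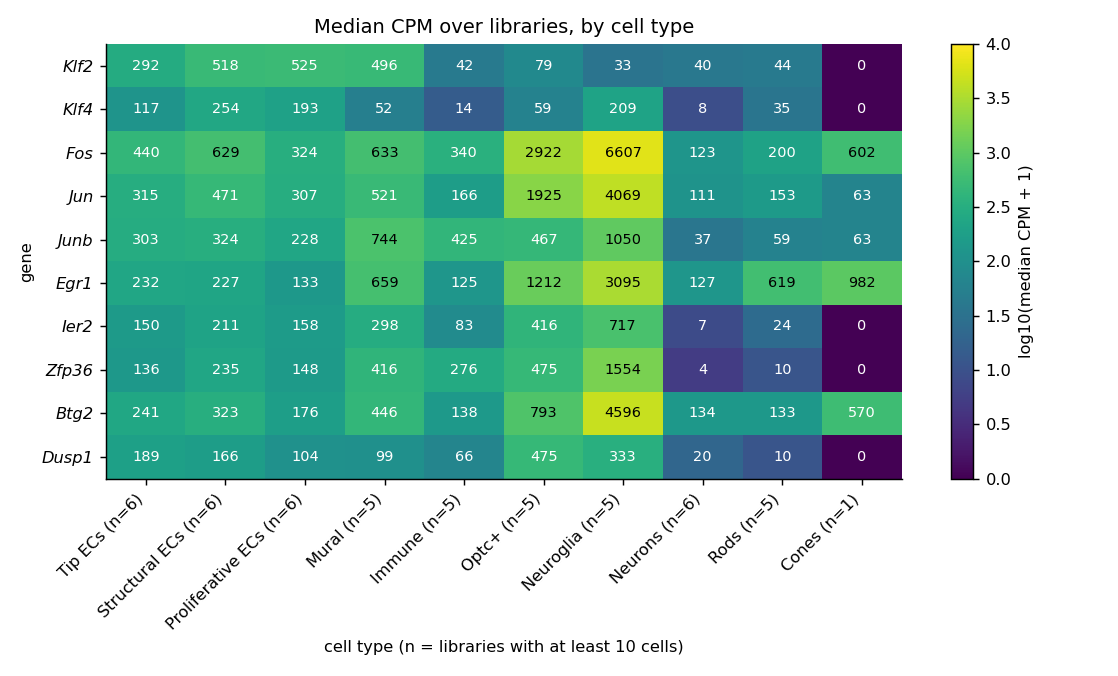
Median CPM of each member (rows) in each cell type (columns), printed in each field and coloured as log10(median CPM + 1), over the n libraries with at least 10 cells of that type. The Neuroglia column is brightest for Fos, Btg2, Jun and Egr1, from 3095 to 6607 CPM, whereas the Klf2 row is brightest in the EC subtypes and mural cells, from 292 to 525 CPM.

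Within the endothelium, the members together were higher in Structural ECs, which the authors named as neither tip nor dividing, than in Tip ECs, the migrating cells at the front of a sprout. The Structural to Tip ratio of their summed CPM had a median of 1.41 and was above 1 in 6 of 6 libraries. Klf4 had a median ratio of 2.15, Zfp36 of 1.71, Fos of 1.65 and Klf2 of 1.41, each with Structural ECs higher in 6 of 6 libraries. Junb and Egr1 did not share this pattern, since Junb was higher in Structural ECs in 3 of 6 libraries (median ratio 1.00) and Egr1 in 1 of 6 (0.856). Markers of other cells were also higher in Structural than in Tip ECs in 6 of 6 libraries. The 5 Neuroglia markers summed to 439 to 1276 CPM against 203 to 533 CPM, 5 red blood cell markers to 34.9 to 22522 CPM against 13.8 to 400 CPM, and 6 B cell markers to a median of 321 CPM against 3.15 CPM. When every EC with a UMI of these 3 lists was left out, which was chosen after seeing the data, the members' sum was still higher in Structural ECs in 6 of 6 libraries (median ratio 1.41), as were Klf4 (3.10) and Zfp36 (1.73), whereas Klf2 (1.69) and Fos (1.98) were higher in 5 of 6. Optc+ and mural markers were also higher in Structural than in Tip ECs in every library, and ECs with their UMIs were kept. The Optc+ markers summed to 549 to 1102 CPM against 217 to 561 CPM, and the mural markers to 12.5 to 3726 CPM against 4.61 to 238 CPM. Optc+ cells held a median of 3.05 times the members' all-EC level and mural cells 1.39 times, and their part in the ratio was not tested.

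Against Proliferative ECs, the summed members of Structural ECs were 1.54 times as high (median, 6 of 6 libraries), with Fos at 2.04, Btg2 at 1.87 and Zfp36 at 1.86 times. Tip and Proliferative ECs differed less in their sums (median ratio 1.14, higher in Tip ECs in 4 of 6 libraries), although Egr1 (1.70) and Dusp1 (1.66) were higher in Tip ECs in 6 of 6.

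The levels in ECs varied widely between libraries of the same genotype. Klf2 in all ECs was at 324, 684 and 684 CPM in eNOS+/+ replicates 1, 2 and 3 and at 219, 172 and 923 CPM in eNOS-/- replicates 1, 2 and 3. The highest and the lowest library were both eNOS-/- and lay 5.38-fold apart. Over the 2 genotypes Klf2 was 564 ± 208 CPM and 438 ± 421 CPM (SD, n = 3 each), and the genotypes overlapped.

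Ier2, a nuclear protein of the early serum response, followed a like course with 136, 270 and 231 CPM in eNOS+/+ and 82.1, 75.0 and 307 CPM in eNOS-/-. Junb had 226, 387 and 435 CPM in eNOS+/+ and 220, 167 and 510 CPM in eNOS-/-. Zfp36 had 108, 218 and 255 CPM in eNOS+/+ and 156, 126 and 317 CPM in eNOS-/-. In each of these genes eNOS+/+ replicate 1 lay with eNOS-/- replicates 1 and 2, and the other 3 libraries were higher.

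Egr1 had 113, 253 and 236 CPM in eNOS+/+ and 206, 148 and 346 CPM in eNOS-/-. Fos had 355, 529 and 535 CPM in eNOS+/+ and 484, 513 and 846 CPM in eNOS-/-. Jun had 378, 477 and 439 CPM in eNOS+/+ and 278, 291 and 493 CPM in eNOS-/-. The same 3 libraries were the higher ones, for Fos only by a small margin.

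Klf4 had 165, 215 and 254 CPM in eNOS+/+ and 237, 178 and 332 CPM in eNOS-/-. Btg2 had 215, 233 and 307 CPM in eNOS+/+ and 244, 258 and 481 CPM in eNOS-/-. Dusp1 had 160, 154 and 212 CPM in eNOS+/+ and 141, 87.8 and 346 CPM in eNOS-/-. In these 3 genes eNOS-/- replicate 3 was again the highest library, but the other libraries did not separate.

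The sample descriptions number the libraries 701 to 706 without saying what the numbers stand for. Numbers 701 and 702 are eNOS-/- replicates 1 and 2, 703 is eNOS+/+ replicate 1, 704 is eNOS-/- replicate 3, and 705 and 706 are eNOS+/+ replicates 2 and 3, so each run of 3 numbers holds both genotypes. This grouping was noticed after the values were seen. In all ECs, 7 of the 10 members (Klf2, Fos, Jun, Junb, Egr1, Ier2 and Zfp36) were higher in every library of 704 to 706 than in any of 701 to 703, and 0 were lower. Of the 9483 genes tested, 8.7% were higher and 11.2% lower in this way, and because the members were picked with library differences in view, nothing is read from the excess. Of the markers of other cell types in all ECs, those of Neuroglia and red blood cells divided by number as well. Those of neurons, rods, cones, mural, immune, Optc+ and B cells overlapped between the runs of numbers. The 5 Neuroglia markers, none at 0, summed to 365 to 440 CPM in 701 to 703 and to 690 to 786 CPM in 704 to 706, and Neuroglia carry 8.92 times the members' EC level, although only 0.0873 times that of Klf2. The 5 red blood cell markers, none at 0, summed to 24.3 to 3107 CPM and to 4157 to 8529 CPM. Without the ECs that held a UMI of the Neuroglia, red blood cell or B cell markers, 174 to 1523 ECs per library were left, and 5 members (Klf2, Jun, Junb, Ier2 and Dusp1) were higher in every library of 704 to 706, against 7.51% of all genes. Fos, Egr1 and Zfp36 no longer separated, although their means still differed between the runs of numbers. The differences were 1.22-fold for Fos, 1.77-fold for Egr1 and 1.70-fold for Zfp36, against 1.41-fold, 1.79-fold and 2.03-fold with all ECs. Klf2 was then 184, 132 and 263 CPM in 701 to 703 and 656, 593 and 605 CPM in 704 to 706, a 3.20-fold difference. By genotype, 0 of the 10 members had groups that did not overlap in all ECs, where 5.39% of all genes were higher and 5% lower in every eNOS-/- library.

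**Figure D2:**
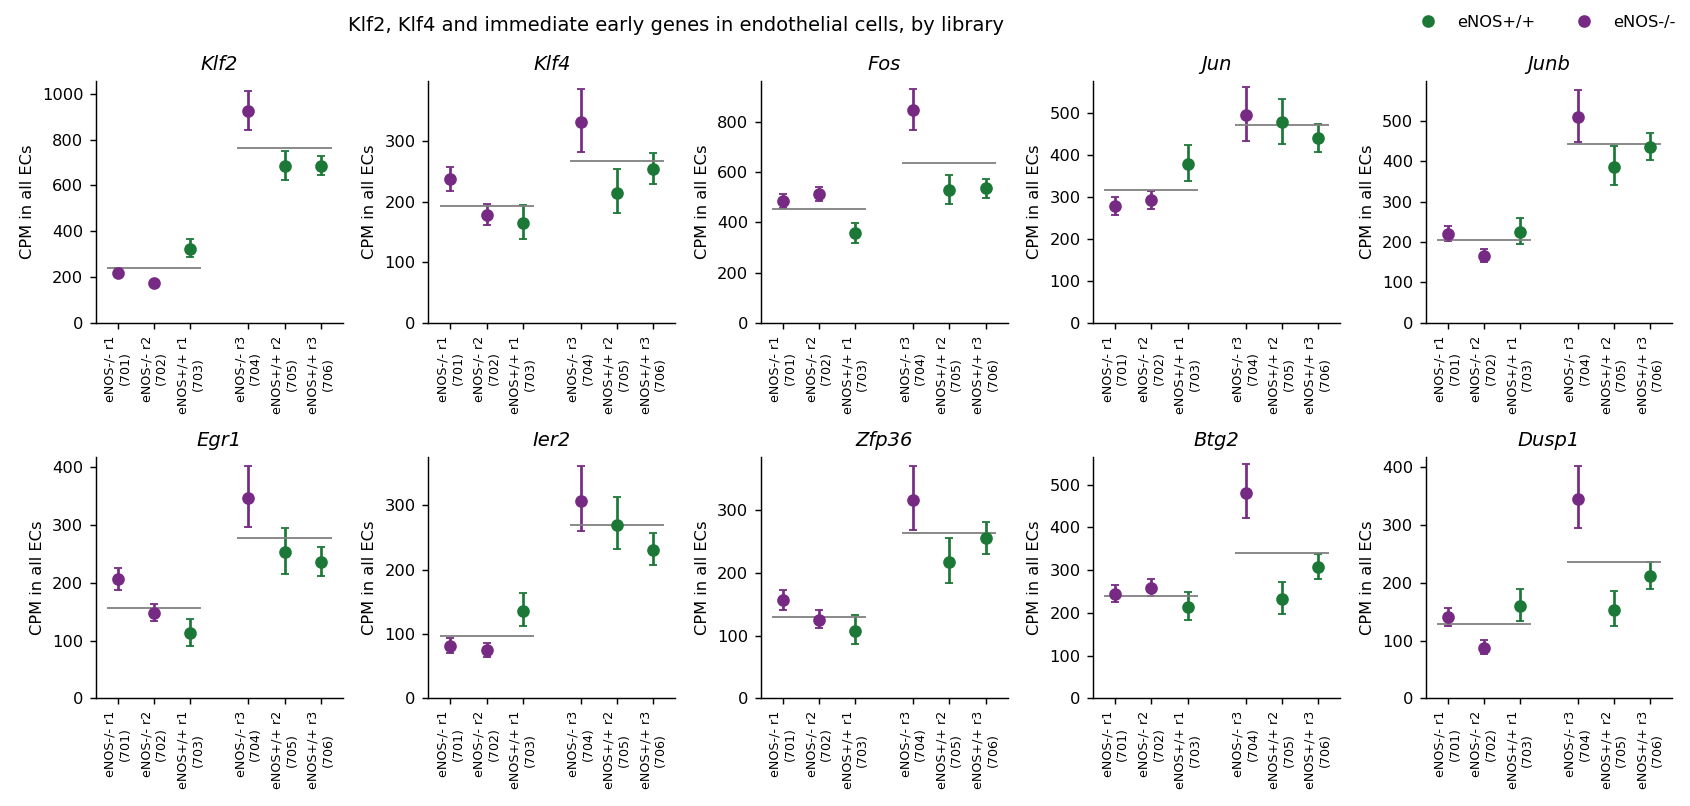
CPM of each member in all ECs (y axis, linear, from 0) in libraries 701 to 706 (x axis), eNOS+/+ in green and eNOS-/- in purple, with 95% Poisson intervals that cover counting error only and a grey line at the mean of each run of 3 numbers. Klf2 lies between 172 and 324 CPM in 701 to 703 and between 684 and 923 CPM in 704 to 706.

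Klf2 averaged 238 ± 77.9 CPM in 701 to 703 and 764 ± 138 CPM in 704 to 706 (SD, n = 3 each), a 3.21-fold difference. Ier2 differed 2.76-fold, Junb 2.17-fold and Zfp36 2.03-fold, and Klf4, at 1.38-fold, differed least. Both genotypes took part, since Klf2 was 2.11 times as high in the eNOS+/+ libraries of 704 to 706 as in that of 703, and 4.73 times as high in the eNOS-/- library 704 as in 701 and 702. The 10 members summed to 2154 ± 128 CPM in 701 to 703 and 3969 ± 812 CPM in 704 to 706. On the log2 scale the Klf2 difference was 1.71, and 0.274% of the 9483 genes had a larger one, while Ier2 had 1.50 (0.475% larger), Junb 1.12 (1.28%) and Btg2, the member with the smallest, 0.45 (12.6%). The median over all genes was -0.03.

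**Figure D3:**
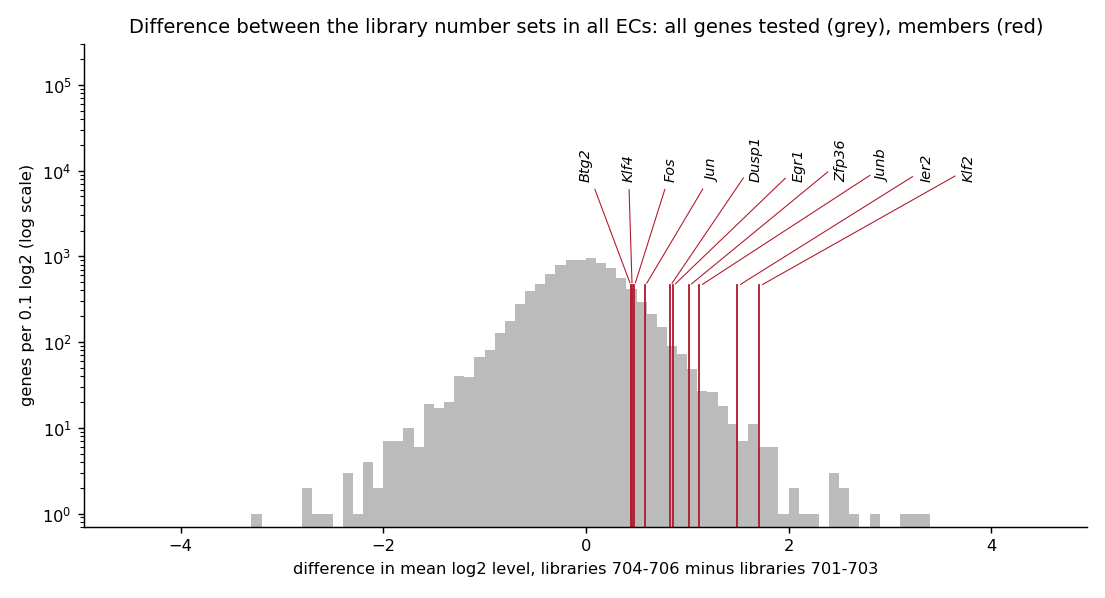
Histogram of the log2 difference between the mean of libraries 704 to 706 and that of 701 to 703 in all ECs (x axis) over the 9483 genes tested (y axis, number of genes, log scale), with the members marked in red. All 10 members lie to the right of the median of -0.03, from 0.45 for Btg2 to 1.71 for Klf2.

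The grouping by number appeared in each EC subtype, although the subtypes of a library share its preparation. In Tip ECs 5 of the 10 members (Klf2, Jun, Junb, Ier2 and Zfp36) were higher in every library of 704 to 706, against 7.84% of the 5510 genes tested there. In Structural ECs 8 members (all but Btg2 and Dusp1) were, against 8.26% of 7577 genes, and in Proliferative ECs 6 (Klf2, Junb, Ier2, Zfp36, Btg2 and Dusp1), against 9.23% of 4607 genes. Klf2 differed 3.17-fold in Tip, 3.31-fold in Structural and 2.85-fold in Proliferative ECs.

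Mural cells, the pericytes and smooth muscle cells of the vessel wall, divided in the same way for Klf2. It was at 52.7 CPM in library 701 and 24.5 CPM in 702, and at 860 CPM in 704, 496 CPM in 705 and 625 CPM in 706. Library 703 had only 3 mural cells and gave no value. These levels rest on 2 to 83 Klf2 UMIs from 30 to 57 cells. The other members and the share of all genes were not compared by number in mural cells, so nothing is read from this division. The part of EC RNA in the mural level of Klf2 was not tested. The EC markers in these mural cells summed to 1068 CPM in 701 and 1337 CPM in 702, where ECs had 4944 and 4215 CPM, so in both libraries mural cells held a fraction of the EC level of the EC markers as well as of Klf2. In 704 the EC marker sum was 580 CPM, against 4632 CPM in its ECs, while Klf2 was 860 CPM in mural cells and 923 CPM in ECs. In 705 it was 1142 CPM and in 706 it was 1041 CPM, against 4815 and 5061 CPM in ECs, with Klf2 at 684 CPM in the ECs of both.

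The difference was spread over many ECs. When each cell was thinned to 500 UMIs and shallower cells were left out, at least 1 Klf2 UMI was found in 8.53% of 903 ECs of library 701, in 7.92% of 1023 of 702 and in 12.7% of 322 of 703. The shares were 32.1% of 184 ECs in 704, 23.2% of 362 in 705 and 27.3% of 751 in 706, all above the first 3. Without thinning they were 23.0%, 11.6% and 24.2% in 701 to 703 and 39.2%, 34.2% and 37.7% in 704 to 706. Over all ECs the thinned share was 15.4%, and rods, which should lack Klf2, had 0.95% at the same depth. Cells with 3 or more UMIs of the members together made up 12.0% to 13.7% of thinned ECs in 701 to 703 and 24.6% to 29.3% in 704 to 706, and cells with none made up 45.3% to 51.1% and 28.8% to 32.1%.

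**Figure D4:**
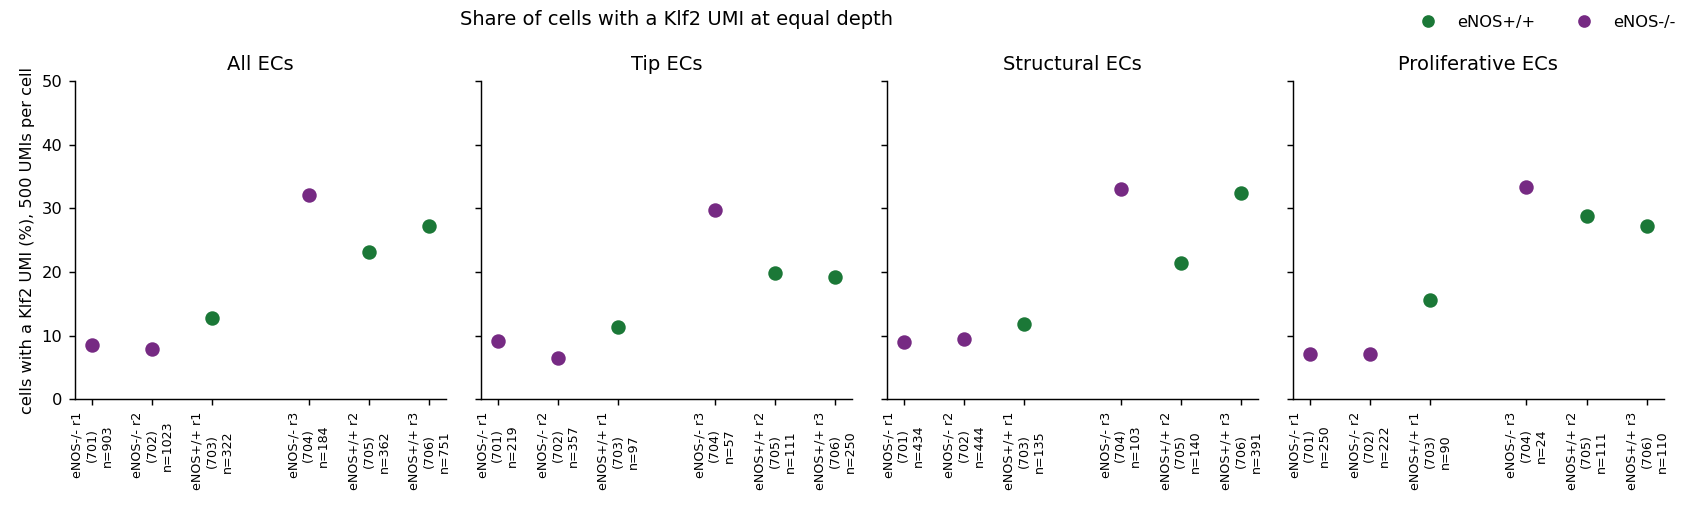
Share of cells with at least 1 Klf2 UMI after thinning each cell to 500 UMIs (y axis, percent), by library number (x axis), for all ECs and the EC subtypes, eNOS+/+ in green and eNOS-/- in purple. In all ECs libraries 701 to 703 lie between 7.92% and 12.7% and libraries 704 to 706 between 23.2% and 32.1%.

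Counting error was small beside this spread. The SD of log2 CPM within a genotype was 1.02 for Klf2, where counting alone would give 0.068, and 2.99% of tested genes had a larger SD. The SD was 0.88 for Ier2, 0.73 for Dusp1, 0.69 for Junb, 0.68 for Zfp36 and 0.63 for Egr1, and from 0.35 to 0.43 for Jun, Klf4, Fos and Btg2. The median over all tested genes, low counts included, was 0.35. Over the 3867 tested genes with a mean of at least 50 CPM, as all members have, the median was 0.27.

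Properties of the transcripts moved with the library numbers too, and their part in the member differences was not tested. Genes in the fifth of highest GC content had a median log2 difference of 0.15 between 704 to 706 and 701 to 703, and 15.0% of them were higher in every library of 704 to 706, while the fifth of lowest GC had a median of -0.15. Over 9420 genes, which are not independent replicates, Spearman's rho of this difference was 0.26 with GC content and -0.24 with transcript length. The transcripts of Junb (62.6% GC), Klf2 (61.6%) and Ier2 (60.9%) are richer in GC than nearly all tested genes, whose median was 48.6%. The mural markers were high in the ECs of library 704 alone, and leaving out ECs with 2 or more UMIs of the 5 mural markers left its summed members at 5129 CPM, against 4902 CPM with all its ECs. Median UMIs per EC did not follow the numbers, with 1098, 418 and 794 in 701 to 703 and 800, 796 and 782 in 704 to 706.

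The comparison the study was built on is that of genotypes, which asks whether loss of eNOS altered these genes in ECs. Summed counts per library were compared with edgeR's quasi-likelihood test, with the library as the replicate and p-values adjusted over all genes by the Benjamini-Hochberg method, and a gene was called at an adjusted p under 0.05. In all ECs 0 of the 10 members were called, where 0.0211% of the 9483 genes were, and 0 members had an unadjusted p under 0.05. DESeq2 also called 0 members. Of the members 5 had a positive and 5 a negative log2 fold change (eNOS-/- over eNOS+/+), with a median of 0.02 against 0.01 over all genes.

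Among the flow factors, Klf2 had a log2 fold change of -0.40 (SE 0.50, edgeR adjusted p = 0.969) and Klf4 of 0.20 (SE 0.25). Among the transcription factors of the early response, Fos had 0.37 (SE 0.26), Egr1 0.18 (SE 0.33), Jun -0.30 (SE 0.24) and Junb -0.27 (SE 0.36). Among the remaining genes, Ier2 had -0.56 (SE 0.44), Btg2 0.35 (SE 0.27), Dusp1 0.05 (SE 0.38) and Zfp36 -0.02 (SE 0.35). The SE of Klf2 is wide enough that a difference of its estimated size could not have been detected with these 6 libraries. The summed members were 3062 ± 769 CPM in eNOS+/+ and 3062 ± 1598 CPM in eNOS-/- ECs.

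In the EC subtypes 0 members were called either, where 0.0181% of genes were called in Tip, 0.0264% in Structural and 0.0217% in Proliferative ECs. In Proliferative ECs 8 of the 10 members had a negative log2 fold change (median -0.55), where 51.7% of all tested genes had a positive one (median 0.02). Klf2 led the members at -1.12 (SE 0.37, edgeR adjusted p = 0.512). Jun was lower in every eNOS-/- library (268 ± 23.1 CPM) than in any eNOS+/+ library (400 ± 114 CPM, SD, n = 3 each). In all ECs 5% of genes were lower in every eNOS-/- library. The share was not counted in Proliferative ECs, so nothing is read from the separation of Jun there. Klf2 in these cells was 391, 823 and 659 CPM in eNOS+/+ and 188, 177 and 678 CPM in eNOS-/-, so the third eNOS-/- library lay within the eNOS+/+ range. With no filter on low counts Klf2 was called there (edgeR adjusted p = 0.0429), where 0.0601% of 16641 genes were. Whether the genotype effect differed between subtypes was tested as an interaction, and 0 members passed in Tip against Structural or in Proliferative against Structural ECs, as did 0% of the 7019 genes in each (275 and 229 genes had an unadjusted p under 0.05). Klf4 was the nearest, with a difference of 0.79 between Tip and Structural ECs (SE 0.32, edgeR adjusted p = 0.998). In Neurons, the other type with 10 cells in every library, no member passed the count filter, and 0% of 982 genes were called (41 had an unadjusted p under 0.05).

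One library decided the sign and call of several members. Without eNOS-/- replicate 3 (library 704), Klf2 was lower in eNOS-/- ECs with a log2 fold change of -1.55 (SE 0.30, edgeR adjusted p = 0.0258), and Ier2 with -1.45 (SE 0.26, edgeR adjusted p = 0.0172). These were 2 of 10 members, where 0.745% of 10468 genes were called. In Structural ECs Ier2 was then called (-1.60, SE 0.29, edgeR adjusted p = 0.0380; 0.317% of genes called). In Proliferative ECs Klf2 (-1.76), Ier2 (-1.61) and Junb (-1.18) were called, where 1.39% of genes were. Both eNOS-/- libraries that remain are numbered 701 and 702, and 2 of the 3 eNOS+/+ libraries are 705 and 706, so genotype and library number largely coincide in this fit.

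When the run of library numbers was added as a term, which was chosen after seeing the data, 0 members were called in all ECs, where 0.0949% of genes were. Klf2 then had a log2 fold change of -0.13 (SE 0.23), nearer 0 than without the term, whereas Fos had 0.58 (SE 0.17, edgeR adjusted p = 0.539) and Egr1 0.58 (SE 0.19, edgeR adjusted p = 0.647). Within 701 to 703 the eNOS-/- to eNOS+/+ ratio of Klf2 was 0.604, from 2 libraries against 1, and within 704 to 706 it was 1.35, from 1 against 2. Ier2 likewise had ratios of 0.578 and 1.23, on opposite sides of 1. The ratios of Fos (1.40 and 1.59), Egr1 (1.57 and 1.42) and Zfp36 (1.31 and 1.34) were above 1 in both.

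**Figure D5:**
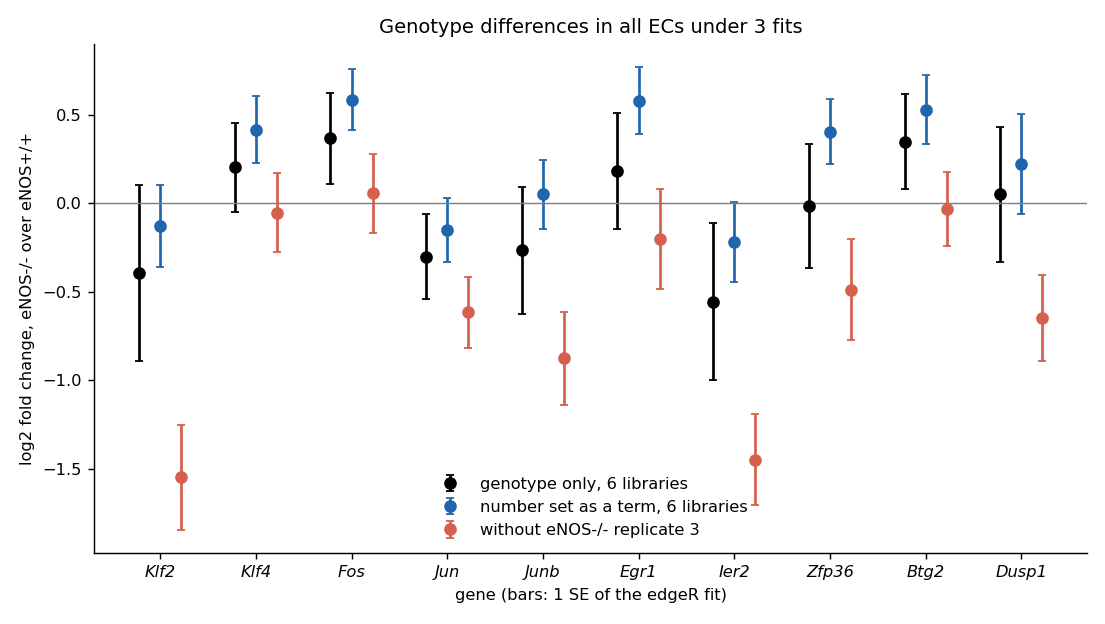
Log2 fold change, eNOS-/- over eNOS+/+, in all ECs for each member (points, with bars of 1 SE) from the fit on genotype alone, the fit with the run of library numbers as a term and the fit without eNOS-/- replicate 3. Klf2 moves from -0.40 to -0.13 with the term and to -1.55 without that library, and Ier2 reaches -1.45.

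Related genes were taken from lists of known pathways. The lists were chosen with earlier results of these data known, so nothing is read from an excess over all genes. Of 35 other immediate early genes tested in all ECs, edgeR and DESeq2 called 0 between genotypes (3 had an unadjusted p under 0.05), and their median log2 fold change was -0.18. By library number, 10 were higher in every library of 704 to 706 and 0 lower, against 8.7% and 11.2% of all tested genes, with a median log2 difference of 0.45 against -0.03. These 10, named after their values were seen, were Dusp6, Btg1, Jund, Ppp1r15a, Fosb, Ier5, Cebpd, Trib1, Dusp5 and Cebpb. Of the 4 most abundant genes of the list none was among them, and Nfkbia, which holds NF-kappaB in the cytoplasm, was at 1333 ± 411 CPM in eNOS+/+ and 1247 ± 401 CPM in eNOS-/- ECs (SD, n = 3 each).

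Of 21 tested genes from a list of Klf2 and Klf4 targets and other flow-responsive genes, 0 were called by edgeR or DESeq2 between genotypes (1 had an unadjusted p under 0.05). By library number 5 (S1pr1, Thbd, Nos3, Hmox1 and Thbs1) were higher and 2 (Tek and Ptgis) lower in every library of 704 to 706, where the shares over all genes were 8.7% and 11.2%. The median log2 difference of the list was 0.087, against -0.03 over all genes. The list was not split by the direction in which Klf2 or flow moves each gene, so these values do not show whether targets followed Klf2. S1pr1, the sphingosine 1-phosphate receptor that stabilizes vessels, was at 291, 358 and 344 CPM in eNOS+/+ and 343, 335 and 360 CPM in eNOS-/- ECs, a far narrower range than that of Klf2. The log2 difference of Nos3 by library number was 0.67. Of 16 genes upstream of Klf2, from the MEKK3 and ERK5 pathway and the junctional flow sensor, 0 were called (1 had an unadjusted p under 0.05), 3 were higher and 5 lower by library number. Of 18 genes upstream of the immediate early response, 0 were called (0 had an unadjusted p under 0.05), 1 was higher and 2 were lower.

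Heat shock and stress genes were counted as markers of cell stress. Of 23 tested, 0 were called between genotypes (1 had an unadjusted p under 0.05), and by library number 6 were higher and 3 lower, where the shares over all genes were 8.7% and 11.2%, with a median log2 difference of 0.02. Their summed level ran from 8473 to 9802 CPM, and Hsp90ab1, the most abundant, was lower in every library of 704 to 706. Of 5 tested mRNAs that Zfp36 is known to destabilize, 0 were called (2 had an unadjusted p under 0.05), and none separated by library number.

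Over the 18 sums of EC subtype and library, the genes most like the summed members on log2(CPM + 10) were Btg1, a relative of Btg2 (Pearson r = 0.88), Agrn (0.86), Ppp1r15a (0.82), Zbtb7a (0.82) and Cldn5 (0.80), among 3854 genes with a mean of at least 50 CPM. For Klf2 alone they were Bc1 (0.93), Scand1 (0.92), Grasp (0.89), Pcbp1 (0.89) and Ndufab1 (0.88). These sums share libraries and depth, so the correlations are descriptions, and the genes nearest to Klf2 also had large differences by library number, 2.40 on the log2 scale for Bc1 and 2.22 for Scand1.

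The 250 bases before the members' RefSeq start sites were searched on both strands for binding motifs of the factors known to induce them. Sites farther upstream were not searched, and no link between a motif and the member levels was tested. The motifs were the CArG box of SRF, the MEF2 box, the CRE of CREB (TGACGTCA) and the AP-1 site (TGANTCA), and a window was at hand for 8 of the 10 members, Ier2 and Egr1 being the others. Klf2 and Jun each held a MEF2 box, found in 0.508% of 32851 windows of all genes. Btg2 and Dusp1 each held a CRE, found in 1.55%. Zfp36 held a CArG box (1.47% of windows) 58 to 49 bases before its start, and the windows of Klf4, Fos and Junb held none of the 4 motifs. No member window held an AP-1 site of the form TGANTCA, which 6.75% of all windows do, and no matches overlapped. Sites of other forms were not searched for, and the Jun window printed below holds TGACATCA, which TGANTCA cannot match.

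The 4 windows with a MEF2 box or a CRE are printed to show where the motif lies, 5′ to 3′ on the gene's strand with the motif in capitals, without bases that lie in annotated exons (RefSeq windows, GRCm38). The Klf2 window is chr8:72318812-72319032 on the + strand, with its MEF2 box 118 to 109 bases before the start. The Jun window is chr4:95052223-95052472 on the - strand, with its MEF2 box at 33 to 24 bases. The Btg2 window is chr1:134079156-134079405 on the - strand, with its CRE at 166 to 159 bases, and the Dusp1 window is chr17:26508520-26508722 on the - strand, with its CRE at 143 to 136 bases.
Klf2: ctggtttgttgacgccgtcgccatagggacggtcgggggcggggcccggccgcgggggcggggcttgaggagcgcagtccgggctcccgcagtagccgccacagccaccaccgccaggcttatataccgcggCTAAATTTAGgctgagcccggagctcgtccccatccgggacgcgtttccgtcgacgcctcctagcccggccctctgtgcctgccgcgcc
Jun: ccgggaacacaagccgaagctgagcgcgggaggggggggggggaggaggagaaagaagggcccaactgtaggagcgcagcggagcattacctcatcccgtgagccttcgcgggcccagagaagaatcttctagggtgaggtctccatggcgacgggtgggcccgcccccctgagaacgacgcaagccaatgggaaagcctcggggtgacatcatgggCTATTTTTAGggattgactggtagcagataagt
Btg2: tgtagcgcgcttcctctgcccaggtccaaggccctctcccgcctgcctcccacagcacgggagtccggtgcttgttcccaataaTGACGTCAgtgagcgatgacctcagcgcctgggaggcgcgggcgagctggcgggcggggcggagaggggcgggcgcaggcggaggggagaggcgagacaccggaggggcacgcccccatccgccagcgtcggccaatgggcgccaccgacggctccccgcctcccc
Dusp1: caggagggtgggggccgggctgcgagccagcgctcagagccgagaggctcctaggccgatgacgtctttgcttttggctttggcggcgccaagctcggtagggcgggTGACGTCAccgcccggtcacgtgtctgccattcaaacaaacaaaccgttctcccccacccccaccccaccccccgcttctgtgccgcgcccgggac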

How the data were processed

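Single-cell RNA from CD31-enriched P14 retina was measured by Drop-seq in 6 libraries. The authors deposited a table of UMI counts per gene and cell, with metadata that include the percent of mitochondrial UMIs per cell computed by the authors. According to the study's methods and processing notes, reads were converted with bcl2fastq and aligned with kb-python, and clustering used Seurat (version 3), with GRCm38/mm10. Cells with few genes or a high mitochondrial share, and contaminant clusters, had been removed, and the notes used here name no doublet caller, so none was run. Of the metadata, 11 columns were not used.

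UMIs were summed per library and authors' cell type. Each cell was assigned by the metadata's replicate column. Depth was 488367 to 2425603 EC UMIs per library, and intervals (95% Poisson) cover counting error only. No pair of libraries of a genotype were copies, with a chi-square per gene of 4.09 to 7.50. Genes were filtered with filterByExpr, scaled by TMM and tested with edgeR 4.0.16 in R 4.3.3 (quasi-likelihood test, Benjamini-Hochberg over all genes tested, limit 0.05), and DESeq2 1.42.0 was the alternative test. On data simulated from the all-EC sums, 187 of 200 genes changed by a log2 of 2 were recovered, with 16 false calls. Other alternatives were RLE scaling, no filter on low counts, leaving out each library, the replicate number as a block, cells with at least 500 UMIs, and mitochondrially encoded genes removed. The library number term and the removal of ECs with UMIs of mural markers, or of Neuroglia, red blood cell or B cell markers, were added after seeing the data.

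All members, Nos3, at most 4 genes of highest mean CPM per list and the 5 genes most like the members were named, with further genes only where said. The members and the lists were chosen with earlier results of these data known. GC content was that of the longest GENCODE transcript. Promoter windows came from RefSeq.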

Additional observations from a re-analysis of the deposited data

How the results depend on the processing

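Of the 140 log2 fold changes of members refitted in all ECs, 120 kept their direction and side of the threshold, 18 changed sign and 2 became calls, both without eNOS-/- replicate 3. Junb was 0.0506 with the library number term, Zfp36 0.0195 with DESeq2, 0.0113 with the replicate block and 0.41 with the library number term, and Dusp1 -0.082 with the replicate block. Leaving out 1 library at a time gave -1.55 to 0.0105 for Klf2, -0.0532 to 0.41 for Klf4, -0.88 to 0.0437 for Junb, 0.0575 to 0.53 for Fos, -0.62 to -0.13 for Jun, -1.45 to -0.18 for Ier2, -0.20 to 0.44 for Egr1, -0.49 to 0.28 for Zfp36, -0.0328 to 0.55 for Btg2 and -0.65 to 0.43 for Dusp1, and -0.55 to 0.33 for the members' median. The members' summed CPM per library stayed within the library spread in 24 of 24 recomputed values, and 45 shares of ECs with a UMI moved on thinning.

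The number of genes called was 2 in all ECs, 1 in Tip, 2 in Structural and 1 in Proliferative ECs and 0 in Neurons. Without the filter on low counts it was 84, 8, 74, 10 and 1, and the median log2 fold change of all genes in all ECs moved to 0.14. Leaving out 1 library gave 0 to 78, 0 to 25, 0 to 28, 0 to 73 and 0 to 3. The library number term gave 9, 2, 10 and 2 in the EC types. Cells with at least 500 UMIs gave 1 in all ECs, 2 in Tip and 0 in Structural ECs, DESeq2 gave 2 in Tip ECs, and leaving out ECs with mural UMIs gave 0 in Structural ECs. With replicate number as a block the count was 11 in Structural and 3 in Proliferative ECs. Same-numbered libraries of the 2 genotypes had correlations of 0.295, -0.0997 and 0.257 over 3867 genes, for replicates 1, 2 and 3. Differently numbered libraries had -0.333 to 0.199, so replicates 1 and 3 were most alike between genotypes and replicate 2 was not. The cause of these changes was not tested. The smallest all-EC library, eNOS-/- replicate 3 with 288 ECs, is the least deeply sampled and the one on which the Klf2 and Ier2 calls turn.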
